A study of Mus musculus with 20 samples.

Results

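The integrins and the adaptor proteins of focal adhesions were followed through tumors of RiboTagEC mice treated with the anti-Notch4 antibody 6-3-A6. The 40 genes were taken by name from the 55866 genes of the count table and comprise 18 integrin alpha subunits, 8 beta subunits and 14 cytoplasmic adaptors. All mice were female C57BL/6J animals of the genotype Rpl22HA/HA x Cdh5CreERT2, in which tamoxifen (75 mg/kg on 5 days, at 3 weeks of age) makes the ribosomal protein Rpl22 carry a hemagglutinin (HA) tag where Cdh5, the gene of the endothelial junction protein VE-cadherin, is expressed. Py8119 mammary tumor cells, which carry no tag, were implanted into a mammary fat pad at 8 weeks. Treatment with 6-3-A6 (25 mg/kg) or with mouse IgG as control was given 2 times a week for 10 days, starting at tumor volumes of about 30 mm3 by the sample protocol and 50 mm3 by the series design. From each of 10 tumors, 5 per treatment, the homogenate (input) and the anti-HA immunoprecipitate (IP), which is meant to hold the ribosome-bound mRNA of endothelial cells, were sequenced. This gave 20 libraries in 4 groups of 5, which are the input and IP of the control IgG tumors and of the 6-3-A6 tumors.

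Integrins are paired receptors of 1 alpha and 1 beta chain that hold cells to the extracellular matrix and to other cells. Their short tails carry no enzyme activity, so talins and kindlins bind the beta tail to switch the receptor on, and paxillin, vinculin, focal adhesion kinase and the complex of ILK, PINCH and parvin connect it to actin and to signaling. Endothelial cells use integrins to grip the basement membrane and to sprout, platelets and endothelium share the beta3 chain, and leukocytes carry a beta2 family of their own.

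Levels are given as counts per 1000000 counts of the library (CPM), scaled by the trimmed mean of M values (TMM). Library totals ran from 11881214 to 26728205 counts (median 16942643). The upper limit of a gene with 0 counts, set at 3 counts, is thus 0.112 to 0.252 CPM before the TMM scaling, depending on the library (counting error only). Reads were counted over whole gene spans, introns included, and reads in stretches shared with another gene were not assigned. Of the 40 genes, 17 were overlapped by no other gene, 17 by less than 20% of the span and 6 by more. Itgam, the alpha subunit of Mac-1, is overlapped over 99.9% of its span by Gm49368 and had 0 counts in all 20 libraries, and Ilk, overlapped over 68.3% by Rrp8 and Taf10, had 35 counts in all. Neither could be measured. Itgad (68 counts in all libraries together), Itgb6 (150) and Fermt1 (66) stayed below the filter on low counts, which left 35 genes tested in every comparison. With 1 library left out, Itgb6 passed this filter in some fits of IP over input. Values of Itga1 (44.8% overlapped by Pelo and other genes), Itga10 (39.7%) and Itgav (26.8%) cover only the remaining part of the gene.

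Of the endothelial markers, 18 of 18 had more CPM in the IP than in the homogenate (median log2 fold change 4.44), and their summed level ran from 1316 to 7666 CPM in IP and from 190 to 331 CPM in input. Markers of macrophages were still abundant in IP, with sums between 3435 and 9045 CPM against 5895 to 14624 CPM in input. In 6-3-A6 input 4, mitochondrial genes took 38.2% of the counts, against 17.2% in the next library, and its median rank correlation with its group was 0.908, the lowest of the 20. The lowest endothelial sums among IP libraries were those of 6-3-A6 IP 2 (1316 CPM) and control IgG IP 4 (1686 CPM). For the 6-3-A6 libraries, a description label gives the other fraction than the title does, and titles were used.

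The stretches just upstream of 4 of the genes are printed because Itgax, Itgav, Itgb5 and Fermt2 are the genes with an entry in the promoter table among those that differed between treatments in the 6 libraries kept by the study. Each run is the 250 bases before the start of transcription, 5′ to 3′ on the strand of the gene, from RefSeq on GRCm38.p6. Capitals mark matches, on either strand, to GAGGAAGT (the form bound by ETS factors such as PU.1), TGACTCA (AP-1) or GGGCGG (the GC box of Sp1).
Itgax (chr7:128129300-128129549, plus strand): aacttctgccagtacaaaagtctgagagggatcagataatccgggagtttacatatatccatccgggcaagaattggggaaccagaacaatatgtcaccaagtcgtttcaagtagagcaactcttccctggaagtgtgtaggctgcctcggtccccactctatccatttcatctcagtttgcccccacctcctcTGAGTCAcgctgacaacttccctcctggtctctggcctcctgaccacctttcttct
Itgav (chr2:83724147-83724396, plus strand): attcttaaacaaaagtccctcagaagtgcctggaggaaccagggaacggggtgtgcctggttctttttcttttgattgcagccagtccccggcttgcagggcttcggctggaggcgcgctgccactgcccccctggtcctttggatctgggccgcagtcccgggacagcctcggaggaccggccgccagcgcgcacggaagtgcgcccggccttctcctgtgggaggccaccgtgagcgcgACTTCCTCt
Itgb5 (chr16:33829415-33829664, plus strand): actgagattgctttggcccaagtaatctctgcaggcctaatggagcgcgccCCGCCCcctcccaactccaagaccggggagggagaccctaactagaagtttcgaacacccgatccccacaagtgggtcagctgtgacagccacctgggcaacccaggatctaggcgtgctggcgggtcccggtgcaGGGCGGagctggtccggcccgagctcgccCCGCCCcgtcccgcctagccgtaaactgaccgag
Fermt2 (chr14:45530066-45530315, minus strand): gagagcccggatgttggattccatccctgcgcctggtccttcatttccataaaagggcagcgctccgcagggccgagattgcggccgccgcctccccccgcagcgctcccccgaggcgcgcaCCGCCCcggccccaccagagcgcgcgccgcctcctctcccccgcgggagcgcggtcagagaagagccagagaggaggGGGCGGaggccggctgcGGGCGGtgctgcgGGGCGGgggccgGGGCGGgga
Of the 40 genes, 27 have an entry in this table, with 33 windows in all. GAGGAAGT stood in 4 of the 33 windows (those of Itgav, Itgb6, Itga11 and Lims1) and in 2.44% of 32851 promoter windows of the same length. TGACTCA stood in 1 of the 33, that of Itgax, and in 4.46% of all windows, and GGGCGG in 14 of the 33 and in 32.7% of all windows. Fermt2 held 5 of these GC boxes, 4 of them between positions -51 and -4 relative to the start, and Itgb5 held 3, whereas Itgax and Itgav held none in this window. Such a match is a string of letters and was not tested as a binding site.

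Levels of different genes were compared only per kilobase of exon, since the counts grow with length. The counts also hold reads from introns, which this length does not cover, so that the order below holds for this scale only. In control IgG IP, Itgb1, the beta1 chain shared by most alpha subunits, had the highest level of the genes overlapped by less than 20%, with a median of 339.6 CPM per kb and a range of 298.5 to 489.6 (n = 5). Itgb2, the chain of leukocyte integrins, followed at 72.5, the PINCH1 gene Lims1 at 63.0, Parvb at 42.6 and Itgb5 at 40.4 CPM per kb. The ranges of Itgb2 and Lims1 overlapped, as did those of Parvb and Itgb5, and that of Itgb1 stood clear of all others. Itgb3 reached a median of 27.0 CPM per kb in IP, the tenth place, against 1.90 CPM per kb in input. Lims2, by contrast, remained a weakly covered gene in IP, with 2.06 CPM per kb against 0.282 in input. Of the alpha subunits overlapped by less than 20%, Itga5, Itga6 and Itga3, the receptors for fibronectin and laminin, had the highest medians in control IgG IP. These were 35.5, 33.9 and 29.1 CPM per kb, with ranges that overlapped, and the lowest were those of Itga8 and Itga11 (0.133 and 0.163). Itgav, kept out of this order by its overlap of 26.8%, had a median of 27.1 CPM per kb and a range of 15.9 to 38.7.

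**Figure D1:**
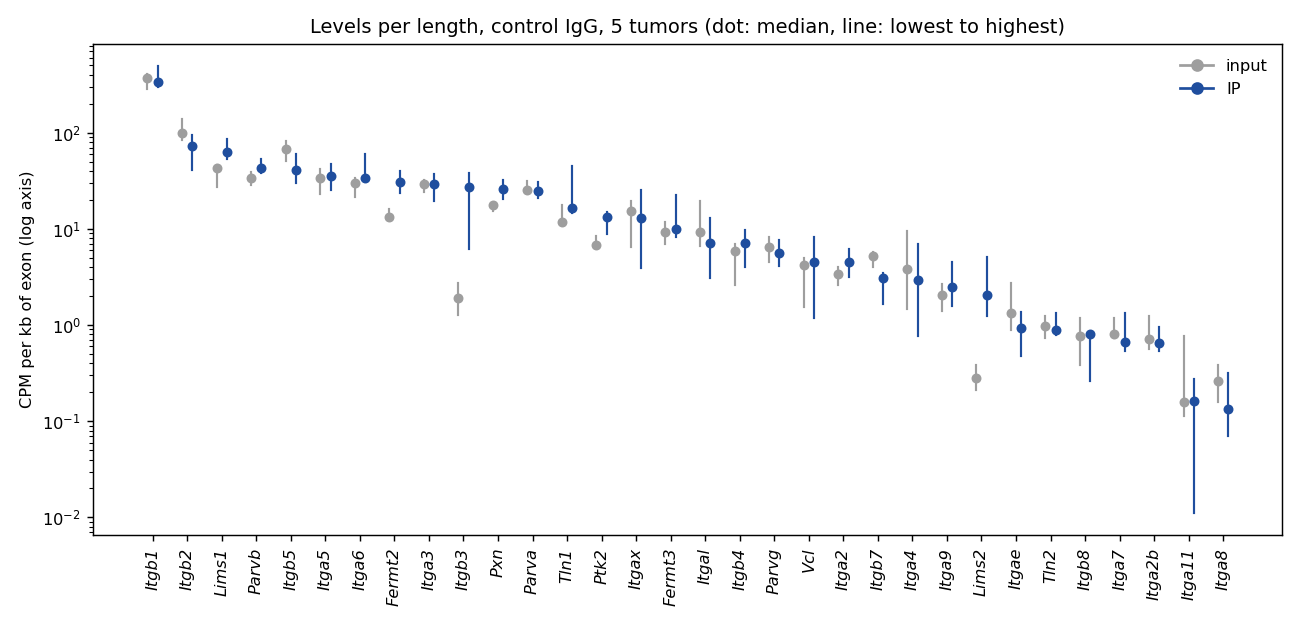
Levels of the tested genes overlapped by other genes over less than 20% of the span, in CPM per kb of exon on a log axis, in the 5 input and 5 IP libraries of control IgG tumors. Dots are medians and lines run from the lowest to the highest library. IP lies above input without overlap for Itgb3, Fermt2, Pxn, Ptk2, Lims1 and Lims2 and below it for Itgb7. The share of all genes without overlap in these 5 and 5 libraries was not counted.

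The first comparison asked which of the genes the endothelial IP held at a higher or lower level than the whole tumor, over all 20 libraries with treatment as a term. Genes called at an adjusted p below 0.05 (edgeR's quasi-likelihood test, Benjamini-Hochberg over 14488 genes) made up 40.4% of all genes, 19.6% higher and 20.8% lower in IP. With upper-quartile scaling in place of TMM the split was 2250 higher and 3897 lower, in place of 2842 and 3014. Of the 35 tested genes, 14 (40%) were called, 9 higher and 5 lower, so that the share as a whole was that of any genes. The adaptors and the receptors differed in how these calls fell. Of the 12 adaptors tested, 7 were higher and 0 lower (median log2 fold change 0.60), whereas of the 23 integrin subunits 2 were higher and 5 lower (median -0.21). The median over all genes was -0.06. In the 10 tumors taken 1 by 1, IP exceeded input in every tumor for 8 of the 40 genes (Itgb3, Tln1, Fermt2, Pxn, Ptk2, Parvb, Lims1 and Lims2), as for 16.1% of all tested genes.

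**Figure D2:**
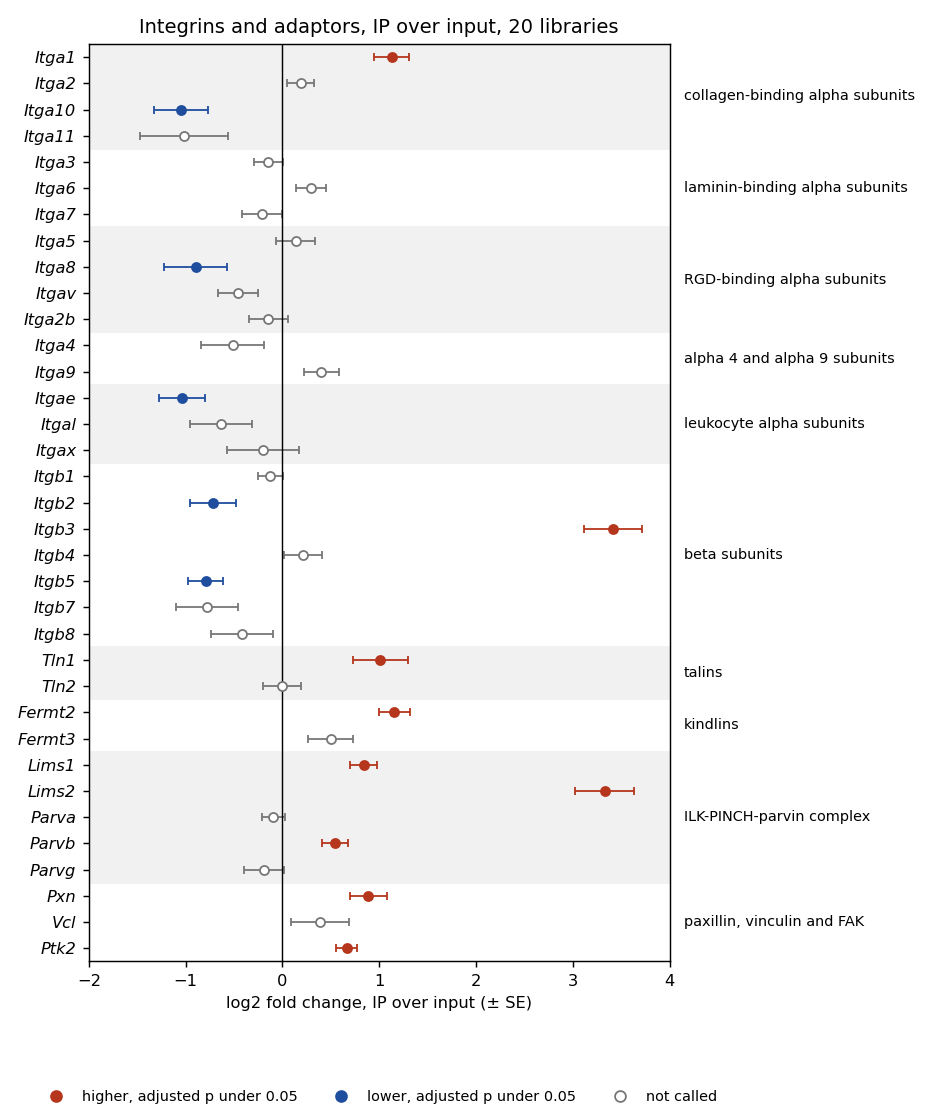
Log2 fold change of IP over input for the 35 tested genes, grouped by role, as points with bars of ±1 SE from the fit over 20 libraries. Itgb3 and Lims2 lie above 3, the other 7 genes called higher lie between 0.54 and 1.16, and the 5 genes called lower lie between -1.05 and -0.72.

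Itgb3, which encodes the beta3 chain of the alpha-v beta3 receptor of angiogenic vessels and of the platelet fibrinogen receptor, had the largest difference of all 35 genes. In input its level was 16.1, 11.2, 14.7, 7.42 and 9.15 CPM in control IgG tumors 1 to 5 and 11.4, 10.96, 10.3, 7.19 and 12.2 CPM in 6-3-A6 tumors 1 to 5. In IP it was 225, 159, 194, 36.4 and 70.7 CPM in control IgG and 142, 33.2, 118, 123 and 146 CPM in 6-3-A6. No IP library overlapped the input range, and the lowest IP values belonged to the 2 libraries with the least endothelial marker RNA, 6-3-A6 IP 2 and control IgG IP 4. The log2 fold change was 3.42 ± 0.30 (SE), a 10.7-fold difference (adjusted p = 8.4e-09, edgeR). Groups without overlap in this direction made up 5.02% of all genes tested, and 6 of the 35 genes were among them (Itgb3, Fermt2, Pxn, Ptk2, Lims1 and Lims2).

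The partners of Itgb3 did not share this pattern. Itgav, the alpha chain it pairs with on endothelium, had a median of 335 CPM in input and 222 CPM in IP (log2 fold change -0.46 ± 0.21, adjusted p = 0.079, edgeR), and Itga2b, its platelet partner, differed by -0.14 ± 0.20 (adjusted p = 0.59). Itga2b stayed between 1.27 and 6.75 CPM in all libraries, and the summed markers of platelets and megakaryocytes ran from 29.5 to 66.3 CPM in IP and from 51.9 to 100.3 CPM in input. Itgb5, the other beta chain that joins Itgav, was lower in IP, with 79.6 to 211 CPM (median 121) against 77.2 to 290 CPM (median 234) in input and a log2 fold change of -0.79 ± 0.18 (adjusted p = 0.0014). Within each tumor, the log2 ratio of IP to input was larger for Itgb3 than for Itgb5 by 4.00 ± 0.91 (SD, n = 10), and this held in 10 of 10 tumors. This pair was chosen after its values were seen, so that the ratio is a description. Itgb8, a further partner of Itgav, was not called (-0.42 ± 0.32, adjusted p = 0.31), and Itgb1 was nearly level between the fractions (-0.12 ± 0.13, adjusted p = 0.47).

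Of the 4 collagen-binding alpha subunits, Itga1 was higher in IP and Itga10 lower. Itga1 lay between 15.6 and 30.9 CPM (median 26.3) in input and between 28.5 and 92.1 CPM (median 59.6) in IP, a log2 fold change of 1.13 ± 0.18 (adjusted p = 4.6e-05). Its lowest IP value came from 6-3-A6 IP 2 and lay inside the input range. Itga2, which binds collagen as well, differed by 0.19 ± 0.14 (adjusted p = 0.30). Itga10, best known from cartilage, fell by 1.05 on the log2 scale (SE 0.28, adjusted p = 0.0051), from a median of 7.04 to 3.66 CPM. Itga11, a collagen receptor of fibroblasts, had a log2 fold change of -1.02 ± 0.46 (adjusted p = 0.079) at levels of 0.0573 to 3.98 CPM.

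The laminin receptors Itga3, Itga6 and Itga7 were not called (log2 fold changes -0.15, 0.29 and -0.21, adjusted p of 0.44, 0.14 and 0.42). Nor was the fibronectin receptor Itga5, whose levels of 107 to 235 CPM in IP and 41.3 to 204 CPM in input differed by 0.14 ± 0.20 (adjusted p = 0.60). Itga8, a receptor of smooth muscle and mesenchyme, was called lower (-0.90 ± 0.33, adjusted p = 0.034) at 0.368 to 2.36 CPM in IP, close to the counting limit. That call was lost when control IgG input 5, control IgG IP 3 or 4, 6-3-A6 input 4 or 5, or 6-3-A6 IP 2, 3 or 4 was left out (-0.83 to -0.75, adjusted p of 0.057 to 0.064). Itga9, a receptor for tenascin and other ligands, and Itga4, the leukocyte receptor for Vcam1, differed by 0.40 ± 0.18 and -0.51 ± 0.33 (adjusted p of 0.084 and 0.22). The epithelial chain Itgb4 differed by 0.21 ± 0.19 (adjusted p = 0.39).

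Of the leukocyte integrin chains tested, Itgb2 and Itgae were called lower in IP. Itgal, Itgb7 and Itga4 were not called there but were lower with the tumor fitted as a block (adjusted p of 0.00037, 0.0011 and 0.028), and Itgax was called in neither fit. Without the block, Itgal was also called with 6-3-A6 IP 5 left out, and Itgb7 under 8 of the other alternatives, DESeq2 among them. Itgb2 lay between 141 and 447 CPM (median 275) in input and between 85.6 and 321 CPM (median 159) in IP, and was below its own input in 10 of 10 tumors (-0.72 ± 0.24, adjusted p = 0.022). Itgae, the alpha chain of intraepithelial lymphocytes and some dendritic cells, had 4.09 to 12.6 CPM in input and 1.499 to 6.34 CPM in IP (-1.04 ± 0.24, adjusted p = 0.0017), again below input in 10 of 10 tumors. Itgal, the alpha chain of LFA-1, was likewise lower in every tumor but not called over all 20 libraries without the block (-0.63 ± 0.32, adjusted p = 0.12). IP below input in every tumor held for 7.52% of all genes tested and, of the 40 genes, for these 3. Itgb7, a chain of lymphocyte homing receptors, differed by -0.78 ± 0.32 (adjusted p = 0.056), and Itgax, the CD11c gene of dendritic cells and macrophages, by -0.20 ± 0.37 (adjusted p = 0.69). The summed macrophage markers were also lower in IP (median 5314 against 9531 CPM), with 8 of 13 called lower, as were the summed lymphoid markers (median 30.6 against 65.5 CPM), with 5 of 9 tested called lower, and their part in the integrin values was not tested. IP and input were taken from the same tumors, so that these differences lie between fractions and give no number of cells per tumor.

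Among the activators of integrins, Tln1 and Fermt2 were higher in IP while Tln2 was not. Tln1, the widely expressed talin, lay between 39.1 and 180 CPM (median 120) in input and between 142 and 697 CPM (median 213) in IP, with a log2 fold change of 1.01 ± 0.29 (adjusted p = 0.0078). The IP values were spread by 2 libraries, 6-3-A6 IP 2 at 697 CPM and control IgG IP 5 at 442 CPM, whereas the other 8 lay between 142 and 239 CPM. Tln2 differed by -0.01 ± 0.20 (adjusted p = 0.98). Fermt2, the kindlin of most adherent cells, had 63.6, 69.2, 82.6, 83.0 and 64.2 CPM in control IgG input 1 to 5, and 158, 162, 206, 123 and 154 CPM in control IgG IP 1 to 5. In 6-3-A6 tumors 1 to 5 it had 95.9, 95.8, 108, 96.1 and 51.1 CPM in input and 228, 193, 295, 287 and 111 CPM in IP. All 10 IP values exceeded all 10 input values, and the log2 fold change was 1.16 ± 0.16 (adjusted p = 6.4e-06). Fermt3, the kindlin of blood cells, differed by 0.50 ± 0.23 (adjusted p = 0.086).

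In the complex that joins kindlin and the beta tail to actin, both PINCH genes and 1 of 3 parvins were higher in IP. Lims2, which encodes PINCH2, had 0.638 to 1.18 CPM in the 10 input libraries (9 to 19 counts each) and 7.94, 5.70, 15.8, 3.80 and 6.30 CPM in control IgG IP 1 to 5 and 14.0, 4.60, 18.2, 15.2 and 4.70 CPM in 6-3-A6 IP 1 to 5. The log2 fold change was 3.33 ± 0.31, 10.1-fold (adjusted p = 1.6e-08), close to that of Itgb3. Lims1, the PINCH1 gene, was at a far higher level per length in both fractions and rose by 0.84 ± 0.14 (adjusted p = 6.9e-05), from a median of 187 to 314 CPM. Within tumors the log2 ratio of IP to input was larger for Lims2 than for Lims1 by 2.16 ± 0.54 (SD, n = 10), in 10 of 10 tumors. Of the parvins, Parvb rose (0.54 ± 0.13, adjusted p = 0.0033), from a median of 145 to 206 CPM. Parva, the more general alpha form, and Parvg, the leukocyte form, were not called (-0.09 ± 0.12 and -0.19 ± 0.20). Parvb exceeded Parva in the within-tumor ratio by 0.63 ± 0.38 (SD, n = 10), in 10 of 10 tumors. These gene pairs were chosen after their values were seen, so that the ratios are a description.

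Paxillin and focal adhesion kinase were higher in IP, vinculin was not called. Pxn, the scaffold that docks kinases at adhesions, had 30.6 to 151 CPM (median 140) in input and 168 to 361 CPM (median 244) in IP (0.89 ± 0.19, adjusted p = 0.0010). Its lowest input value, 30.6 CPM, was that of 6-3-A6 input 4, the library rich in mitochondrial counts, and the other 9 lay at 126 CPM or more, still below every IP library. Ptk2, the gene of focal adhesion kinase, had 70.5 to 102 CPM in input and 104 to 177 CPM in IP (0.66 ± 0.11, adjusted p = 7.2e-05). Vcl, which clamps talin to actin, ranged from 9.77 to 97.1 CPM in IP and from 12.6 to 53.9 CPM in input, a difference of 0.39 ± 0.30 (adjusted p = 0.31).

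**Figure D3:**
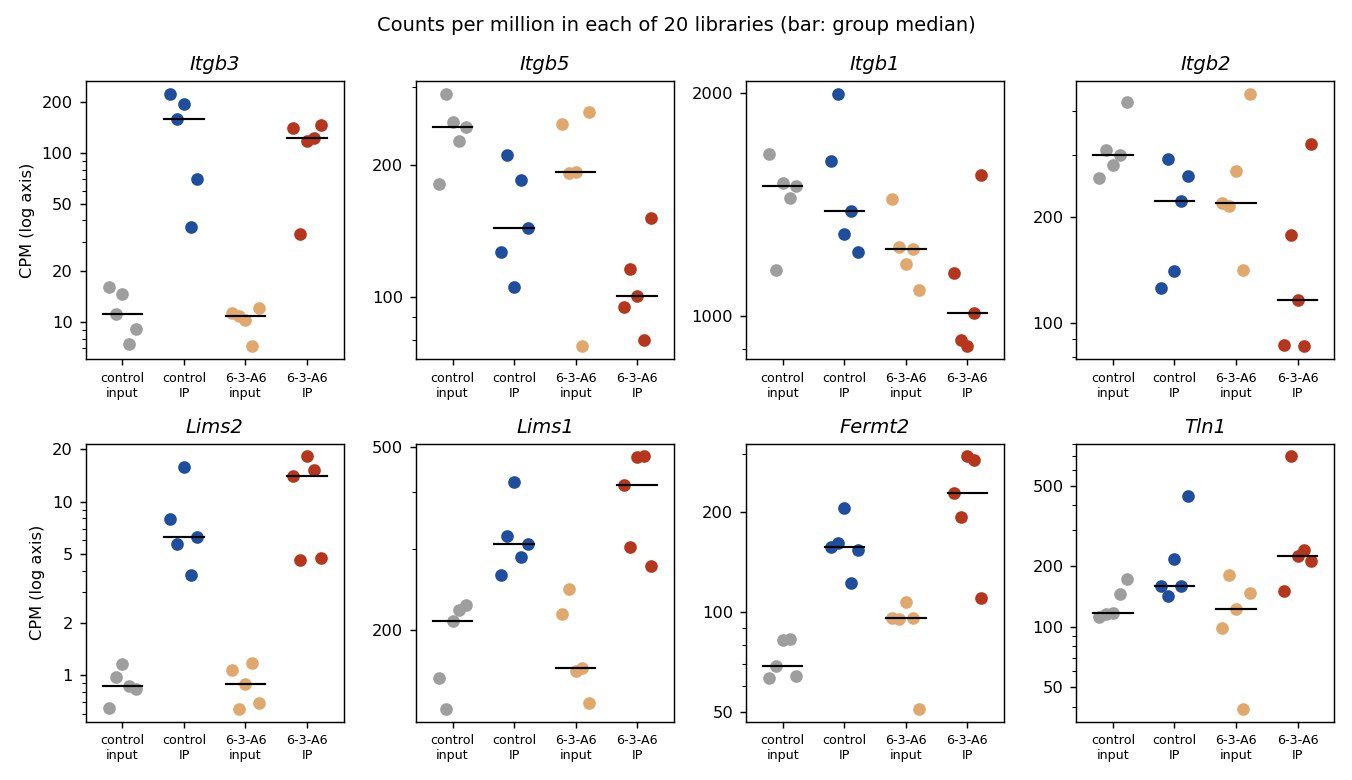
CPM of 4 beta chains and 4 adaptors in each of the 20 libraries, on log axes, with a bar at the median of each group of 5. IP and input are apart for Itgb3, Lims2, Lims1 and Fermt2 and overlap for Itgb5, Itgb1, Itgb2 and Tln1.

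Because IP and input came from the same tumor, the comparison was also fitted with the tumor as a block. All 14 calls kept their direction, and 6 more genes passed, for 20 of 35 called. Fermt3 (0.50 ± 0.17, adjusted p = 0.024) and Itga9 (0.36 ± 0.13, adjusted p = 0.033) were then higher in IP. Itgal (-0.70 ± 0.12, adjusted p = 0.00037), Itgb7 (-0.74 ± 0.15, adjusted p = 0.0011), Itga4 (-0.57 ± 0.20, adjusted p = 0.028) and Itga11 (-0.95 ± 0.36, adjusted p = 0.039) were then lower. The same block brought the calls over all genes from 5856 to 7394. With the 3 libraries that stood apart (6-3-A6 input 4, 6-3-A6 IP 2 and control IgG IP 4) left out, 16 of 35 genes were called, 11 higher and 5 lower.

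Beside Itga8, 1 call rested on a single library, since Itgb2 was not called without 6-3-A6 input 5 (-0.57 ± 0.23, adjusted p = 0.054). Itgb3, Lims2, Fermt2, Itga1, Lims1, Ptk2, Pxn and Itgb5 were called under all 29 alternatives tried, which include the fits within control IgG tumors and within 6-3-A6 tumors.

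Other genes of the pathway, which are not among the 40, were taken from lists fixed by name. Of 45 further focal adhesion genes, 25 were higher and 3 lower in IP (median log2 fold change 0.48), against the 19.6% and 20.8% of all genes. The largest differences were those of Bcar1 (p130Cas, 5.04 ± 0.29, adjusted p = 3.1e-11), its relative Nedd9 (3.86 ± 0.25) and the paxillin relative Tgfb1i1 (3.51 ± 0.31). Bcar1 had a median of 71.9 CPM in input and 2585 CPM in IP. The lowest called were Tns4 (-0.71), Cd9 (-0.59) and Itgb3bp (-0.48). Of 29 tested integrin ligands, 12 were higher and 3 lower, from Jam2 (4.29 ± 0.31), Icam2 (4.24 ± 0.33) and von Willebrand factor (Vwf, 3.38 ± 0.31) to Vcam1 (-0.93 ± 0.21), Edil3 (-0.99 ± 0.25) and Spp1 (osteopontin, -1.06 ± 0.20).

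The second comparison asked whether these genes differed between 6-3-A6 and control IgG in the IP. The study kept 6 of the 10 IP libraries, control IgG 2, 4 and 5 and 6-3-A6 1, 3 and 4, after setting 4 aside as outliers in a principal component analysis, so that the choice rested on the expression values themselves. In these 6 libraries, 7 of 35 genes (20%) were called, against 4.61% of the 13999 genes tested (2.57% higher, 2.04% lower). Itgax, Itgal, Itgb2, Itgav and Itgb5 were lower with 6-3-A6, and Lims2 and Fermt2 were higher. The median log2 fold change was -0.72 for the 23 integrin subunits and 0.14 for the 12 adaptors, with -0.05 over all genes. Over all 10 IP libraries, 0 of the 35 genes and 0 of 13602 genes were called by edgeR, and 0 by DESeq2, with 292 genes (2.15%) at an unadjusted p below 0.05, none of them among the 35. With 1 library left out, 135 (without control IgG IP 2) to 989 genes (without 6-3-A6 IP 5) had an unadjusted p below 0.05, and 0 to 8 of the 35 were among them, 8 without 6-3-A6 IP 5 and 4 without control IgG IP 3, and 0 genes were called in each of these fits.

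Itgax fell most. It had 123, 56.1 and 75.5 CPM in control IgG IP 2, 4 and 5, and 13.3, 12.8 and 15.6 CPM in 6-3-A6 IP 1, 3 and 4, a log2 fold change of -2.64 ± 0.28 (adjusted p = 0.0079, edgeR). In the libraries not kept it had 62.1 and 18.6 CPM in control IgG IP 1 and 3 and 21.1 and 83.1 CPM in 6-3-A6 IP 2 and 5. The groups of 5 therefore overlapped, and over all 10 the difference was -1.18 ± 0.59 (adjusted p = 1.0). In input, 6-3-A6 tumors had 26.8, 23.9, 30.6, 13.7 and 77.2 CPM and control IgG tumors 85.3, 74.1, 31.3, 59.9 and 93.0 CPM (-0.99 ± 0.41, unadjusted p = 0.031, adjusted p = 1.0). Tumor 5 was the high one of the 6-3-A6 group in both fractions.

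Of the other leukocyte chains, Itgal and Itgb2 were called lower in the same 6 libraries. Itgal had 60.0, 47.1 and 85.0 CPM in control IgG IP and 20.7, 26.5 and 20.7 CPM in 6-3-A6 IP (-1.54 ± 0.25, adjusted p = 0.018). Itgb2 had 292, 221 and 261 CPM against 86.6, 116 and 85.6 CPM (-1.46 ± 0.21, adjusted p = 0.017). In control IgG IP 1 and 3, the libraries not kept, both genes were below every kept control (Itgal 20.2 and 26.0 CPM, Itgb2 126 and 141 CPM), and in 6-3-A6 IP 5 both were above every kept control (88.5 and 321 CPM). Over all 10 libraries the differences were -0.26 ± 0.48 and -0.39 ± 0.39 (adjusted p = 1.0 for both). Itgae and Itga4 did not pass in the 6 libraries (-1.20 ± 0.32 and -1.22 ± 0.37, adjusted p of 0.062 and 0.091), nor did Itgb7 (-0.83 ± 0.23, adjusted p = 0.072). With DESeq2 these 3 genes were called lower (adjusted p of 0.012, 0.016 and 0.034).

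Both chains of the alpha-v beta5 receptor were lower as well. Itgav had 416, 327 and 291 CPM in the kept control IgG libraries and 176, 156 and 98.4 CPM with 6-3-A6 (-1.29 ± 0.26, adjusted p = 0.025). Itgb5 had 211, 184 and 144 CPM against 95.0, 100.3 and 79.6 CPM (-1.001 ± 0.207, adjusted p = 0.027). The libraries left out overlapped the other treatment, with Itgav at 170 and 185 CPM in control IgG and 258 and 273 CPM in 6-3-A6, and all 10 gave -0.52 ± 0.32 and -0.50 ± 0.23 (adjusted p = 1.0 for both). Itgb3 was not called and differed by 0.50 ± 0.41 in the 6 libraries and -0.29 ± 0.47 in all 10 (adjusted p of 0.56 and 1.0). Itgb1 differed by -0.62 ± 0.25 and -0.44 ± 0.22 (adjusted p of 0.21 and 1.0).

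Lims2 and Fermt2 were higher with 6-3-A6 in the kept libraries. Lims2 had 5.70, 3.80 and 6.30 CPM in control IgG and 14.0, 18.2 and 15.2 CPM in 6-3-A6 (1.54 ± 0.24, adjusted p = 0.018), and Fermt2 had 162, 123 and 154 CPM against 228, 295 and 287 CPM (0.85 ± 0.20, adjusted p = 0.043). Control IgG IP 3, which was left out, had 15.8 CPM of Lims2, within the 6-3-A6 range, and 6-3-A6 IP 2 and 5 had 4.60 and 4.70 CPM, within that of control IgG. Over all 10 libraries the differences were 0.51 ± 0.44 for Lims2 and 0.46 ± 0.24 for Fermt2 (adjusted p = 1.0 for both). Pxn, Parvb and Lims1 had positive but uncalled values in the 6 libraries (0.61 ± 0.21, 0.59 ± 0.19 and 0.54 ± 0.19, adjusted p of 0.14, 0.11 and 0.15), and with DESeq2 they were called (adjusted p of 0.046, 0.023 and 0.036). The 3 libraries per group did not overlap for 6 of the 35 genes in the higher direction, against 13.5% of all genes, and for 11 in the lower direction, against 10.5%.

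**Figure D4:**
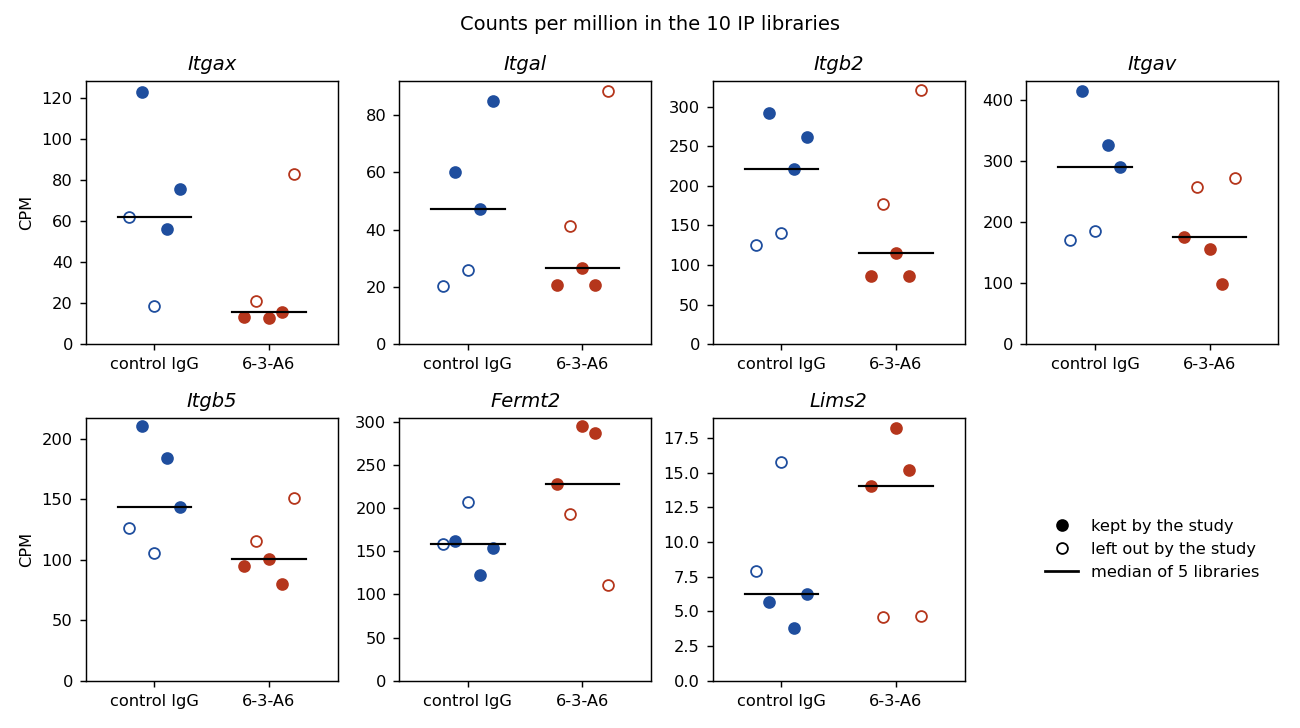
CPM in the 10 IP libraries of the 7 genes called in the study's 6 libraries, with filled points for libraries the study kept, open points for those it left out and a bar at the median of 5. The filled points of the 2 treatments are apart for each gene, and with the open points added the 2 treatments overlap.

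Sums of several cell type markers differed between the same libraries. In the 6 kept libraries the summed macrophage markers were 6704 to 7868 CPM with control IgG and 3435 to 3944 CPM with 6-3-A6, and 6 of 13 were called lower, while the endothelial sums were 1686 to 5412 CPM and 5430 to 6808 CPM, with 5 of 18 called higher. Fibroblast sums were 370 to 523 CPM against 214 to 285 CPM (2 of 9 called lower) and epithelial and tumor sums 325 to 396 CPM against 170 to 247 CPM (2 of 6 tested called lower). Lymphoid sums were 30.8 to 48.0 CPM against 25.5 to 26.2 CPM, with 8 of 8 tested markers at negative values (median log2 fold change -0.74) and 0 called. The sums of the other 3 lists overlapped, with 209 to 352 CPM against 273 to 409 CPM for mural markers (1 called higher, 1 lower), 28.0 to 52.2 against 16.3 to 61.8 CPM for neutrophil markers and 29.5 to 56.7 against 39.5 to 56.7 CPM for platelet markers. The part of these differences in the integrin values was not tested. Between tumors, fewer cells of a type and less RNA per cell cannot be told apart. Over all 10 IP libraries the endothelial sums overlapped between treatments (1686 to 7666 CPM against 1316 to 6808 CPM), as did the macrophage sums (4773 to 7868 CPM against 3435 to 9045 CPM) and the lymphoid sums (30.3 to 48.0 CPM against 22.7 to 166 CPM).

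**Figure D5:**
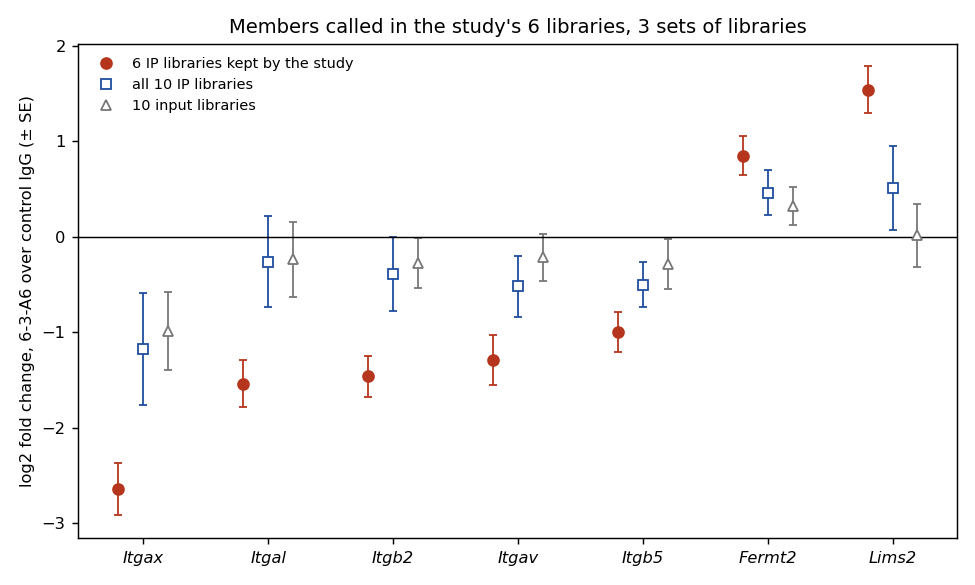
Log2 fold change of 6-3-A6 over control IgG (±1 SE) for the 7 genes, from the 6 IP libraries kept by the study, all 10 IP libraries and the 10 input libraries. Each value from all 10 IP libraries lies nearer 0 than that from the 6, and the comparisons share libraries. The input values cover all 10 tumors, so that they differ from the 6 IP libraries in both fraction and set of tumors.

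With each of the 6 libraries left out in turn, the fold changes of the 7 genes stayed close to those above, and some no longer passed the test. They ran from 0.77 to 0.96 for Fermt2, 1.40 to 1.70 for Lims2, -1.13 to -0.84 for Itgb5, -1.48 to -1.07 for Itgav, -1.68 to -1.26 for Itgal, -1.62 to -1.34 for Itgb2 and -2.84 to -2.25 for Itgax. Without 6-3-A6 IP 3, 1 gene remained called (Itgax, with 9 genes called in the whole table in place of 646), without 6-3-A6 IP 4 there were 3 (Itgax, Itgb2 and Lims2), without control IgG IP 4 there were 4 (Itgax, Itgal, Itgb2 and Lims2) and without 6-3-A6 IP 1 there were 5 (Itgax, Itgal, Itgb2, Itgav and Lims2). Without control IgG IP 2, 4 of the 7 remained (Itgax, Itgal, Itgb2 and Lims2), and Itgb3 was called higher in addition (1.25 ± 0.30, adjusted p = 0.042). Fermt2 and Itgb5 were each called in 1 of these 6 fits, that without control IgG IP 5 (adjusted p elsewhere of 0.062 to 0.20 for Fermt2 and 0.068 to 0.10 for Itgb5). Itgav was not called without control IgG IP 2 or 4 or 6-3-A6 IP 3 or 4 (adjusted p of 0.054 to 0.090).

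In the homogenate, 0 of the 35 genes and 0 of 13683 genes were called between treatments by edgeR, and 0 by DESeq2, with 180 genes (1.32%) at an unadjusted p below 0.05. Itgax was the only one of the 35 among those 180. With 1 library left out there were 83 (without control IgG input 4) to 560 such genes (without 6-3-A6 input 5), with 5 of the 35 among the latter, 0 or 1 in the other fits and 0 genes called in any. In the input of the 6 tumors whose IP the study kept, 561 genes had an unadjusted p below 0.05 (edgeR). Of these, 5 were among the 40 genes, and 0 genes were called. In that subset, input Itgax was 74.1, 59.9 and 93.0 CPM with control IgG and 26.8, 30.6 and 13.7 CPM with 6-3-A6. Over all 10 input libraries, log2 fold changes of the 35 genes ran from -0.99 (Itgax) to 0.36 (Itga8). Fermt2 stood at 0.32 ± 0.20 and Lims2 at 0.02 ± 0.33. The interaction of treatment and fraction, which asks whether the treatment difference in IP departs from that in input, gave 0 calls among the 35 and among 14488 genes by edgeR and by DESeq2, with 125 genes (0.863%) at an unadjusted p below 0.05 and none of the 35 among them. With 1 library left out there were 65 (without 6-3-A6 input 4) to 340 such genes (without 6-3-A6 IP 5), with 1 of the 35 among the latter and 0 in the other fits. Restricted to the 6 tumors whose IP the study kept, the interaction had 1166 such genes, 6 of the 40 among them, and 0 called. The largest interaction estimates over all 20 libraries were those of Tln1 (0.62 ± 0.56), Pxn (0.61 ± 0.37) and Itga8 (-0.63 ± 0.65).

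Of the further focal adhesion genes, Bcar1 (1.38 ± 0.33, adjusted p = 0.043) and Tgfb1i1 (1.28 ± 0.28, adjusted p = 0.030) were higher with 6-3-A6 in the 6 libraries and 0 of 45 lower, so that 4.44% were called against 4.61% of all genes. Bcar1 had 890 to 2110 CPM in control IgG and 3318 to 4168 CPM in 6-3-A6, and over all 10 libraries the differences of both genes, 0.75 ± 0.36 and 0.52 ± 0.36, were not called. Among 29 tested ligands, 1 (3.45%) was higher, the junction protein Jam2 (1.18 ± 0.27, adjusted p = 0.038), and 5 (17.2%) were lower, against 2.57% and 2.04% of all genes. Vcam1 and Icam1, which bind the leukocyte integrins, and Spp1, a ligand of Itgav receptors, fell by 1.46, 1.19 and 1.37 on the log2 scale (adjusted p of 0.018, 0.018 and 0.049). Over all 10 IP libraries 0 of the 29 ligands were called (median log2 fold change -0.30), with -0.49 ± 0.37 for Vcam1, -0.60 ± 0.37 for Icam1, -0.91 ± 0.30 for Spp1 and 0.36 ± 0.45 for Jam2 (adjusted p = 1.0 for each).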

How the data were processed

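RNA-seq libraries of the input and the anti-HA IP of 10 Py8119 tumors were sequenced by the authors as 100 bp single reads, and the submitters' processing notes list STAR 2.7.4a, featureCounts 2.0.1 and 1.5.2 and DESeq2. The authors deposited raw counts per gene for 20 libraries, with positions on GRCm39 whereas the methods name mm10, and a table of the 6 IP libraries they kept. In that table the authors deposited a signal, the count divided by a size factor of the library, from which 100% of values came out as whole reads (relative tolerance 1e-06), and its fold changes and p-values of the authors' own comparison were not used. Run on those reads, edgeR called 646 genes. Strandedness of the counting is not given in the sources used here.

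Counts were tested with edgeR 4.0.16 in R 4.3.3 (TMM, filterByExpr, quasi-likelihood F test, Benjamini-Hochberg over all genes tested, threshold 0.05), and the SE is the log2 fold change divided by the root of F. DESeq2 1.42.0 was an alternative. The steps were tested on simulated counts. Replicates are separate tumors, and the counts of 40 replicate pairs differed beyond sampling noise (lowest median chi-square over genes 2.23, where counting alone gives 0.455). IP and input of 1 number come from the same tumor by the protocol, and their deviations from the group means correlated at -0.079 to 0.70 (over 0.1 in 8 of 10). Exon lengths are from GENCODE M21 and found all 40 genes.

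The 40 genes, the role lists, the markers and the tests were chosen with earlier results of these data known. Of the 40, all are accounted for, and values with fold changes are given for those called. Of the further focal adhesion genes and ligands, the 3 largest and 3 smallest fold changes among those called are named. Alternatives were other scalings, no filter, each library left out, replicate blocks and subsets of tumors.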

Additional observations from a re-analysis of the deposited data

Results flagged for a closer look

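In 16 of 140 groups of 5 libraries, 1 library lay further from the others than Dixon's 95% limit allows (0.71 for 5 values). For independent groups of normal values, chance gives about 1 in 20, or 7. The genes share the same libraries, so that 16 against 7 does not measure an excess over chance. Of the 16, 3 each were in 6-3-A6 input 5, 6-3-A6 IP 5 and 6-3-A6 IP 2.

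In tumor 5 of the 6-3-A6 group, the leukocyte genes Itgax and Itgb7 stood high in both fractions. Itgax had 77.2 CPM in input, with 13.7 to 30.6 CPM in the other 4, and 83.1 CPM in IP, with 12.8 to 21.1 CPM in the others. Itgb7 had 31.7 CPM in input (others 2.91 to 10.6) and 19.0 CPM in IP (others 4.38 to 7.35). The summed macrophage and lymphoid markers of this tumor were also the highest of the 6-3-A6 group in both fractions. They were 14624 and 298 CPM in input and 9045 and 166 CPM in IP. Its neutrophil sums (66.0 CPM in input, 34.8 CPM in IP) lay within those of the others. The part of these sums in the integrin values of tumor 5 was not tested. The same tumor was low in Fermt2 in input, with 51.1 CPM against 95.8 to 107.8 CPM, and in Parva in IP, with 188 CPM against 290 to 308 CPM.

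In 6-3-A6 IP 2, the IP library with the lowest sum of endothelial markers, Itgb3 was low at 33.2 CPM (others 118 to 146), whereas Tln1 was high at 697 CPM (others 150 to 239) and Tln2 at 39.2 CPM (others 12.8 to 15.5). Control IgG IP 5 was high in Tln1 as well, at 442 CPM (others 142 to 216), and in Fermt3, at 132 CPM (others 47.5 to 64.0).

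In 6-3-A6 input 4, the library with the largest mitochondrial share, Pxn was low at 30.6 CPM (others 130 to 142) and Parvb at 75.7 CPM (others 143 to 160). The remaining 3 were Itga11 in control IgG input 1 (3.98 CPM, others 0.580 to 1.14), Itgal in control IgG input 5 (127 CPM, others 43.5 to 65.0) and Itgb8 in control IgG IP 1 (2.87 CPM, others 7.79 to 9.30).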

How the results depend on the processing

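For IP over input, the count of 14 called genes became 15 with DESeq2, 14 with RLE and 16 with upper-quartile scaling, 13 without a filter on low counts and 13 to 17 with each library left out, where 7 of the 20 fits also called Itgb6 lower, a gene that the filter on low counts removes over all 20 libraries. It was 9 in control IgG tumors alone (7 higher, 2 lower), with 2163 genes called in the whole table, 11 in 6-3-A6 tumors alone (2507 genes) and 13 in the tumors of the study's libraries (3416 genes), fits with fewer samples. In neither treatment alone were Itga8, Itgb2 and Tln1 called (Tln1 0.70 and 1.32, adjusted p of 0.12 and 0.052), and Itga10, Itgae and Parvb were not called in control IgG tumors. With the tumor as a replicate block it was 20.

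For 6-3-A6 over control IgG in the 6 libraries, the count of 7 became 13 with DESeq2 (5 higher, 8 lower, with 1251 genes called in the whole table), 7 with RLE or upper-quartile scaling, 9 without a filter (1459 genes in the whole table) and 1 to 7 with each library left out, where calls over all genes ran from 9 to 653. Of the 7 genes, Itgax alone was called under all 10 alternatives, with adjusted p values up to 0.043. No paired analysis was possible because the kept libraries of the 2 treatments share a single number. In all 10 IP libraries, in input and in the interaction, 0 of the 35 genes were called under each alternative run, the replicate block included. Same-numbered tumors of the 2 treatments correlated at over 0.1 in 1 of 5 pairs in each fraction, so that the number names a tumor and pairs nothing. Leaving out 3 libraries in the comparison of IP and input or the interaction, or 2 in the comparison of all IP libraries, was chosen after seeing the data.

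No tested gene turned its direction in a call under any alternative. Counting error bears most on the tested genes with the lowest levels in input, Lims2 (median 0.877 CPM), Itga11 (1.02 CPM) and Itga8 (2.04 CPM).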
